A study of Homo sapiens with 18 samples.

Results

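Transcripts of the insulin-like growth factor (IGF) binding proteins and of the IGF receptors and their substrates were measured in 6 ovarian cancer cell lines. The genes were chosen by name, with earlier results of these data known. They are the binding proteins IGFBP2, IGFBP3, IGFBP4, IGFBP5, IGFBP6 and IGFBP7, the receptors IGF1R and IGF2R and the receptor substrates IRS1 and IRS2, and all 10 were found among the 12853 genes with deposited expression values. RNA-seq was run on 3 replicates of each line, 18 libraries of total RNA depleted of ribosomal RNA. The lines form 3 pairs, each with a platinum-sensitive and a platinum-resistant member, and the question addressed is how expression differs between the members of a pair. CP70 is a resistant derivative of A2780 that was selected in culture. The PEA lines derive from ascites fluid of 1 person with high-grade serous ovarian cancer. PEA1 was taken before any platinum drug was given, and PEA2 once the disease had come back and no longer responded. The PEO lines derive from 1 person with the same cancer who had been given platinum drugs, and resistance became apparent in the clinic between the sampling of PEO1 and that of PEO4. In what follows, a difference is always the resistant minus the sensitive line. Each pair is 1 derivation, so differences are between particular lines and not between sensitive and resistant tumours. The same culture medium, RPMI-1640 with serum, was used for all lines. The sample labels name no drug given to the sequenced cultures, although the design text of the series speaks of cisplatinum treatment, and they call A2780 an endometrial/ovarian line.

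IGF1 and IGF2 are growth factors that bind the receptor tyrosine kinase IGF1R, which phosphorylates IRS1 and IRS2 and through them engages the phosphoinositide 3-kinase (PI3K) and AKT pathway. The secreted binding proteins hold the ligands outside the cell, where they can block, prolong or direct their action, and proteases release the ligands again. IGF2R, also known as the cation-independent mannose 6-phosphate receptor, has no kinase activity and carries IGF2 to lysosomes. In ovarian cancer, binding proteins are known as secreted products of tumour cells, and IGF1R signalling as a growth and survival input. Only RNA was measured here, neither ligand nor phosphorylation.

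The libraries held between 1344098 and 7067336 reads on the listed genes, with a median of 2926659. Expression is given as deposited, in log2 CPM (read counts scaled to a common library size) with 0.5 reads added to each count. The number of reads behind each value could be recovered. A line with at most 3 reads in every library was treated as at the floor, and 3 reads corresponded to between 0.452 and 2.18 CPM. The spread between replicates exceeded counting error in every line, with chi-square values per degree of freedom from 1.74 to 13.5. The labels do not state that replicates came from separate cultures, so p-values measure the spread between these libraries, which may be technical. The serous and epithelial markers of ovarian carcinoma, 10 genes including PAX8, WT1, CDH1 and EPCAM, summed to between 6626 and 7659 CPM in PEO1, 4820 to 6415 in PEO4, 3645 to 3882 in PEA2, 434 to 591 in PEA1, 90.3 to 96.3 in CP70 and 1.96 to 2.84 in A2780. In A2780 none of the 10 exceeded 3 reads in every library, and PAX8, WT1, CDH1, KRT7 and MSLN were at 0 in all 3, so the defining markers of serous ovarian epithelium were absent there. CP70 also lacked most of them. Only EPCAM, KRT8 and KRT18 exceeded 3 reads in every CP70 library, WT1, CDH1 and FOLR1 were at 0, and PAX8 held at most 1 read.

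**Figure D1:**
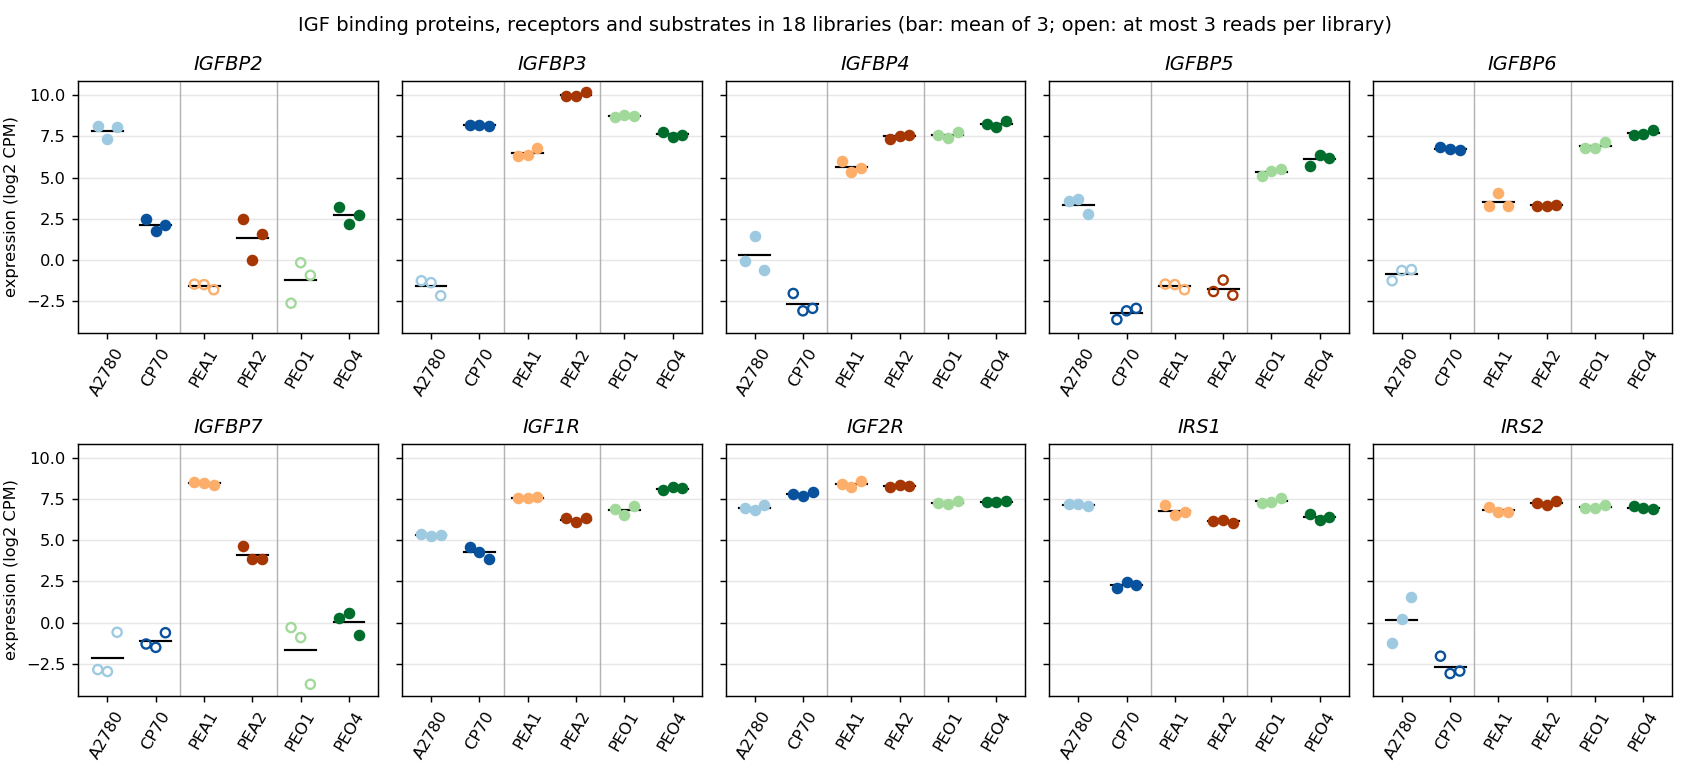
Expression of each of the 10 genes in log2 CPM (y axis) in the 3 libraries of each line (x axis), with bars at the line means and open circles for lines with at most 3 reads in every library. IGFBP3 and IGFBP6 are open in A2780 and above 6.6 in the CP70 libraries, IGFBP7 is above 8.3 only in PEA1, and the 4 receptor and substrate genes stay above 6.0 in the PEA and PEO libraries.

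The A2780 pair differed most. Of the 10 genes, 7 were differentially expressed there, taken as an absolute log2 fold change (log2FC) above 2 and a false discovery rate (FDR) below 0.05, with IGFBP3 and IGFBP6 higher in CP70 and IGFBP2, IGFBP4, IGFBP5, IRS1 and IRS2 lower. With 2 reads in place of 0.5 added to each count, IGFBP4 (log2FC -1.86) and IRS2 (-1.75) no longer exceeded the log2FC threshold and 5 were called. Over all genes, 5.66% were called higher and 3.40% lower by that rule. The 10 genes were chosen with earlier results known, so comparisons with all genes, in every pair, describe them and cannot test for an excess. With the FDR alone, 3 genes rose and 6 fell, against 22.2% and 17.7% of all genes. The median log2FC of the 10 genes was -1.96, and -2.84 over the 9 genes that were above 3 reads in either line, with genes at 0 reads placed at their bound. The median of all genes was -0.03. Only IGFBP7, IGF1R and IGF2R were not differentially expressed. Markers of other cell types also differed between these lines. The fibroblast markers in the table, 8 genes, summed to between 573 and 793 CPM in A2780 and 1423 to 1517 in CP70, and 5 of them rose and 1 fell, POSTN (periostin, a matrix protein) most, from at most 2 reads a library to between 1891 and 2720, a ratio of 1528 (95% exact counting interval 523 to 7411). The collagen gene COL3A1 made up most of the sum in both lines and did not pass the threshold (log2FC 0.49, FDR 0.234). Of the 10 serous and epithelial markers 3 rose and 1 fell, the keratin KRT18 rising with a ratio of 69.0 (interval 36.2 to 152). Their part in the changes of the IGF genes was not tested.

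In the PEA pair 3 genes were differentially expressed, IGFBP2 and IGFBP3 higher and IGFBP7 lower in PEA2, against 7.93% and 6.15% of all genes. With 2 reads added IGFBP2 (log2FC 1.27) was no longer called, leaving 2, and without PEA1 replicate 1 IGFBP4 (log2FC 2.02) was called as well. With the FDR alone 3 rose and 3 fell, where 32.5% and 29.4% of all genes did. The median log2FC was -0.14, or -0.10 with IGFBP5 left out and IGFBP2 at its bound, beside 0.01 for all genes. This pair also differed in markers. Of the 10 serous and epithelial markers 8 rose, the adhesion protein CDH1 most (log2FC 9.28), and the sum of the 8 fibroblast markers went from between 367 and 450 CPM to between 8.64 and 10.5, with 2 rising and 2 falling, the collagen gene COL1A1 most (log2FC -6.67). The sum in PEA1 was nearly all COL1A1, at 513 to 649 reads, the only one of the 8 above 3 reads in every PEA1 library. DCN, LUM, COL1A2, COL3A1 and POSTN were at 0 there, so the fall in the sum is that of 1 gene. COL1A2 and ACTA2 rose. The leukocyte gene PTPRC, the only leukocyte marker in the table, held 46 to 70 reads in each PEA2 library and 0 in each PEA1 library, at least 32.6-fold more. Their part was not tested.

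In the PEO pair IGFBP2 alone was differentially expressed, higher in PEO4, against 2.86% of all genes called higher and 3.37% called lower. With the FDR alone 3 genes rose and 2 fell, against 19.6% and 21.9% of all genes, and the median log2FC was 0.73 against -0.02 for all genes. The marker sums were closer together here, with 155 to 175 CPM of fibroblast markers in PEO1 and 231 to 237 in PEO4. THY1 made up most of the fibroblast sum in both lines and did not pass the threshold (log2FC -0.09, FDR 0.892). Of the fibroblast markers 3 rose, and the collagen gene COL3A1 was at 0 reads in PEO1 and at 156 to 193 in PEO4, at least 268-fold higher. Of the serous and epithelial markers 3 rose and 1 fell, and FOLR1 (folate receptor alpha) went from at most 1 read to between 37 and 48, a ratio of 194.5 (interval 34.3 to 7739). Their part in the changes of the IGF genes was not tested.

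**Figure D2:**
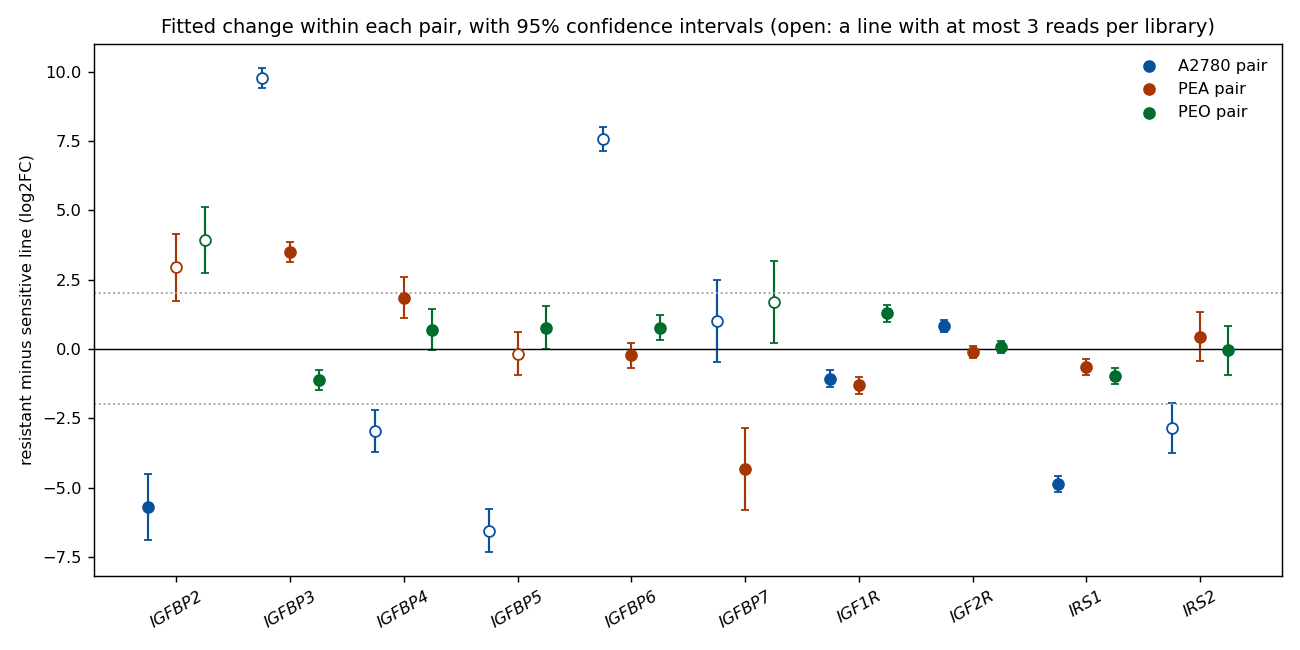
Resistant minus sensitive change (log2FC, y axis) of each gene (x axis) in the A2780, PEA and PEO pairs, with 95% confidence intervals from the fit and dotted lines at 2 and -2. Open circles mark comparisons in which a line held at most 3 reads in every library, where the fitted size depends on the 0.5 reads added. IGFBP3 lies at 9.76, 3.51 and -1.11 in the 3 pairs, and IRS1 lies below 0 in all of them.

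IGFBP3, the main carrier of IGFs in blood (chromosome 7, 45951844 to 45961473, minus strand, GRCh37), went from near absence to high expression in the A2780 pair. The 3 A2780 libraries held 1, 1 and 0 reads and the CP70 libraries 1800, 1213 and 1058. Summed over a line and scaled to depth, that is a ratio of 1396, with a counting interval from 386 to 11530. Such intervals cover counting error only. The fitted log2FC was 9.76 ± 0.17 (SE, FDR 1.79e-19), which ranked 4 among all genes by rise. IGFBP3 also rose in the PEA pair, from 6.50 ± 0.27 log2 CPM in PEA1 (SD, n = 3) to 10.00 ± 0.13 in PEA2 (log2FC 3.51, FDR 1.59e-12), an 11.4-fold difference with no overlap of libraries. From PEO1 to PEO4 it fell, from 8.72 ± 0.05 to 7.61 ± 0.15 (log2FC -1.11, FDR 3.06e-05). The direction in the PEO pair thus differed from that in the other pairs, and the differences between the pairs were themselves past the threshold. PEA2 held the highest level of the 6 lines and A2780 the lowest, and each line was separated from its neighbour in that order at an FDR below 0.05. In bulk RNA, fewer cells with a transcript and less of it in each cell cannot be told apart.

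IGFBP6, which binds IGF2 in preference to IGF1 (chromosome 12, 53491220 to 53496129, plus strand), changed in the same way in the A2780 pair. It had 1, 2 and 1 reads in the A2780 libraries and 693, 446 and 392 in the CP70 libraries, a ratio of summed reads of 262.5 (interval 102 to 965). The log2FC was 7.57 ± 0.21 (SE, FDR 2.13e-16), which ranked 28 among all genes. It rose slightly from PEO1 (6.92 ± 0.19 log2 CPM) to PEO4 (7.68 ± 0.15), with a log2FC of 0.76 (FDR 0.00693). Between PEA1 and PEA2 the libraries overlapped, at 13 to 23 and 18 to 33 reads, and the log2FC of -0.22 had an interval from -0.67 to 0.22. IGFBP6 was therefore low in A2780, intermediate in both PEA lines, and high in CP70 and both PEO lines, of which CP70 and PEO1 were not separated.

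The sequences before the start sites of 4 of the 5 genes that changed most in the A2780 pair are shown for context. IGFBP2, the other, has 3 windows in the RefSeq table and is left out. They are the 250 bases upstream of the RefSeq start (GRCh38.p14), 5′ to 3′ on the gene's strand, with GC boxes (GGGCGG, or CCGCCC on the other strand) and the letters TATA in capitals. A GC box is the core of the site recognised by SP1-type factors. RefSeq windows were matched for 9 of the 10 genes, IGFBP7 being the exception. The first pair of genes below rose in CP70 and the other pair fell.
IGFBP3 (chr7:45921273-45921522, minus strand): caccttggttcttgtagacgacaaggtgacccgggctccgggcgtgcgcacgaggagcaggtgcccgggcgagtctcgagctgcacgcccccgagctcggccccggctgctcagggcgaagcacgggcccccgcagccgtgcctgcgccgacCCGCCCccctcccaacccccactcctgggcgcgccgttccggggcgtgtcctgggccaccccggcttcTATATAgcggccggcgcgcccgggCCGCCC
IGFBP6 (chr12:53097417-53097666, plus strand): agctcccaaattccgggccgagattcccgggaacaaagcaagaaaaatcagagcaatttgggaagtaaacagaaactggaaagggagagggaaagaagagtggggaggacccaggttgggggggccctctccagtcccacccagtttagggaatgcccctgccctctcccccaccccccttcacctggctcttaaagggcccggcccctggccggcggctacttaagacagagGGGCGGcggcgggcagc
IGFBP5 (chr2:216695550-216695799, minus strand): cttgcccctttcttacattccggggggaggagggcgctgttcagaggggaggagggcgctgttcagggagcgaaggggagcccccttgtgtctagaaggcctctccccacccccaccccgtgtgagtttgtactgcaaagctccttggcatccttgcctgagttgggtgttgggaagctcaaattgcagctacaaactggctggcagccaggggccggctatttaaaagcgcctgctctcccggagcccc
IRS1 (chr2:226799821-226800070, minus strand): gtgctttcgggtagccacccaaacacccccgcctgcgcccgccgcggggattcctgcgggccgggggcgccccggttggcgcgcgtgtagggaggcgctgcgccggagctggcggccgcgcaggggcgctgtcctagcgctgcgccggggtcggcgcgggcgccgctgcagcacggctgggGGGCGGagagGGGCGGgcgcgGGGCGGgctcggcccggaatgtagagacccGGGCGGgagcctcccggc

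The windows do not share one composition. IGFBP3 has 2 GC boxes, 2 overlapping matches to TATA and 32 CG dinucleotides, and IRS1 has 4 GC boxes and 39 CG dinucleotides. IGFBP6, with 1 GC box and 9 CG dinucleotides, and IGFBP5, with none and 8, are poorer in CG. Over the 35116 windows of the same length in the RefSeq table, 42.6% hold a GC box and 27.1% hold TATA, 32.4% have at least 20 CG dinucleotides, and the median is 11. These are matches of letters in the windows, and no binding or chromatin was measured here.

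IGFBP2 and IGFBP5 lie next to each other on chromosome 2 (IGFBP2 at 217497551 to 217529159 on the plus strand, IGFBP5 at 217536828 to 217560272 on the minus strand, GRCh37), with 7668 bases between their ends. Both fell in the A2780 pair. IGFBP2, a binding protein that also contacts integrins, had 988, 632 and 596 reads in the A2780 libraries and 34, 14 and 16 in CP70. Its log2FC was -5.71 ± 0.57 (SE, FDR 7.63e-08), a 52.3-fold lower level. Outside A2780 it was scarce. PEA1 held 0 reads and PEA2 10, 3 and 6, at least 3.80-fold higher against 3 reads over the line (log2FC 2.94, FDR 0.000173). PEO1 held 0, 2 and 3 reads and PEO4 26, 13 and 16, a ratio of 16.4 with an interval from 6.64 to 52.7 (log2FC 3.94, FDR 1.34e-05). IGFBP2 thus fell in 1 pair and rose in the other 2, and the rises rest on fewer than 30 reads a library. A2780 was far above every other line, by a log2 difference of 5.14 over the next one, PEO4.

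IGFBP5, which binds the extracellular matrix and bone mineral as well as IGFs, held 42, 49 and 15 reads in the A2780 libraries and 0 in all 3 of CP70. That is at least 51.5-fold lower in CP70 (fitted log2FC -6.55, FDR 1.00e-11). Both PEA lines were at the floor, with 1 read in 6 libraries together, so no fold is given. In the PEO pair the libraries did not overlap, at 104, 116 and 304 reads in PEO1 and 152, 250 and 179 in PEO4, but the log2FC of 0.77 (interval 0.00 to 1.53) missed the threshold with an FDR of 0.103. With each pair fitted alone its FDR was 0.00101, and over all alternatives it ranged from 0.000339 to 0.277. IGFBP5 overlaps DIRC3-AS1 on the other strand. The libraries were made with a directional kit, but the strand setting of the counting is not given in the sources used here, so reads of a gene and of its antisense partner cannot be told apart.

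IGFBP4, an inhibitor of IGF action that the protease PAPPA cleaves (chromosome 17, 38599702 to 38613977, plus strand), was high in the PEO lines and in PEA2 and nearly absent in the A2780 pair. A2780 held 3, 10 and 1 reads and CP70 1, 0 and 0, a ratio of 20.4 whose counting interval runs from 3.11 to 863 (log2FC -2.95, FDR 1.06e-06). That fall is therefore of uncertain size. It rose from 5.63 ± 0.31 log2 CPM in PEA1 to 7.49 ± 0.13 in PEA2, 3.62-fold (log2FC 1.85 ± 0.36 SE, FDR 0.000154). In PEO1 and PEO4 it stood at 7.57 ± 0.16 and 8.26 ± 0.19, with a log2FC of 0.69 (interval -0.05 to 1.44, FDR 0.132). The PEO libraries did not overlap, and with that pair fitted alone the FDR was 5.99e-05, in a range over all alternatives from 4.04e-05 to 0.290.

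IGFBP7, a relative with low affinity for IGFs that also binds matrix, was the reverse case, strong in PEA1 alone. The PEA1 libraries held 511, 503 and 576 reads and those of PEA2 47, 51 and 31. The log2FC was -4.33 ± 0.71 (SE, FDR 2.43e-05), a 20.1-fold lower level in PEA2, and no library overlapped. Elsewhere no library held more than 4 reads. In the A2780 pair both lines were at the floor, with at most 2 reads. The FDR in the PEO pair ranged from 0.0159 to 0.440 over the alternatives. There PEO1 held 2, 1 and 0 reads and PEO4 3, 4 and 1, a ratio of 3.99 (interval 0.957 to 23.4, log2FC 1.69, FDR 0.0619). Its span (chromosome 4, 57896939 to 57976551, minus strand) overlaps POLR2B, which is on the other strand and in the table, by the stretch from 57896939 to 57897324, and also overlaps IGFBP7-AS1.

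Compared per transcript length (RPKM, the CPM divided by the length of the canonical transcript in kilobases), each line had its own mixture of binding protein transcripts. In A2780, 98.3% of the summed RPKM of the 6 genes came from IGFBP2. In CP70, IGFBP6 gave 50.05% and IGFBP3 48.5%, with 1.36% left for IGFBP2. The sum itself was 169.3 RPKM in A2780 and 226.6 in CP70, or 52.2 and 143.7 with the length of all annotated exons. PEA1 drew 78.0% from IGFBP7, and PEA2 drew 78.7% from IGFBP3 and 16.3% from IGFBP4. The PEO lines had 3 main genes. IGFBP3, IGFBP6 and IGFBP4 gave 42.1%, 33.5% and 22.5% in PEO1, and 16.7%, 48.5% and 31.2% in PEO4. With the length of all annotated exons in place of the canonical transcript, the leading gene of each line was the same, but IGFBP3 and IGFBP6 were close in PEO1, at 33.5% and 32.8%. These shares carry no test.

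**Figure D3:**
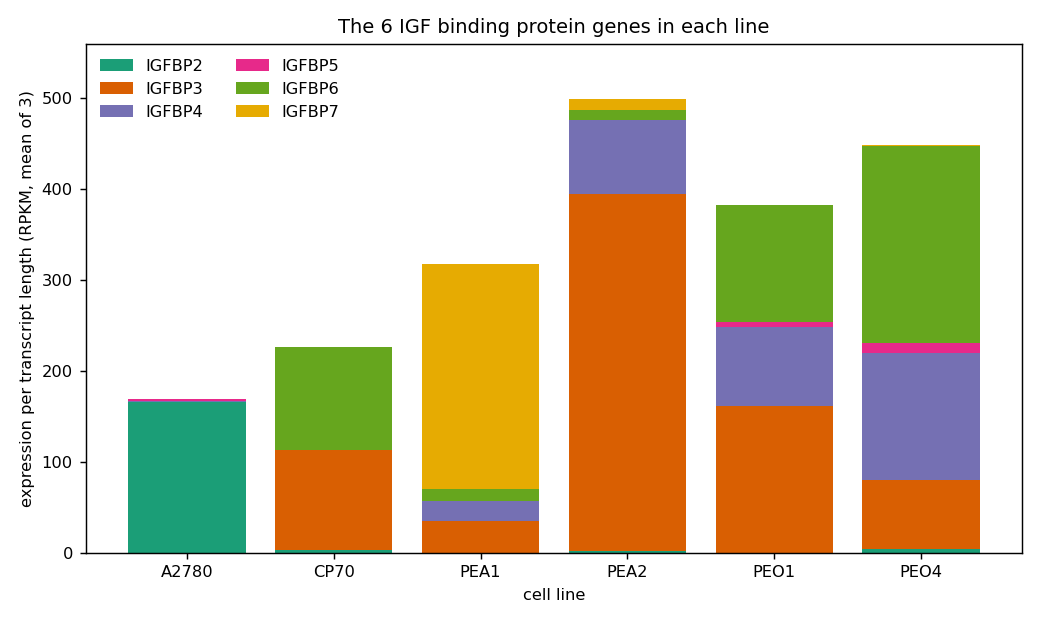
Mean expression per transcript length (RPKM, y axis, mean of 3 libraries) of the 6 IGF binding protein genes, stacked for each line (x axis). IGFBP2 fills the bar of A2780, IGFBP7 most of PEA1 and IGFBP3 most of PEA2, and CP70 is shared by IGFBP3 and IGFBP6.

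IGF1R, the signalling receptor, changed in all 3 pairs but not in 1 direction. It fell from 5.33 ± 0.05 log2 CPM in A2780 to 4.26 ± 0.37 in CP70 (SD, n = 3, 148, 150 and 90 reads against 147, 83 and 55), with a log2FC of -1.08 (FDR 5.89e-06). It fell from 7.55 ± 0.04 in PEA1 to 6.25 ± 0.15 in PEA2 (log2FC -1.30, FDR 2.45e-07). It rose from 6.83 ± 0.26 in PEO1 to 8.12 ± 0.09 in PEO4 (log2FC 1.29, FDR 7.41e-07). The libraries of the lines overlapped in none of these pairs, and each change was between 2.11-fold and 2.47-fold. The change in the PEO pair differed from that in the A2780 pair by 2.36 and from that in the PEA pair by 2.59 on the log2 scale, both past the threshold. The order of the lines ran from PEO4 through PEA1, PEO1, PEA2 and A2780 to CP70, each separated from the next. IGF1R (chromosome 15, 99191768 to 99507759, plus strand) overlaps SYNM-AS1 and other noncoding genes on both strands.

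IGF2R, which clears IGF2 and sorts lysosomal enzymes (chromosome 6, 160390114 to 160534539, plus strand), had the narrowest range of line means among the 10 genes. They lay between 6.96 ± 0.16 log2 CPM in A2780 and 8.40 ± 0.20 in PEA1. It rose in the A2780 pair, from 446, 432 and 311 reads in A2780 to 1334, 847 and 933 in CP70 (log2FC 0.82 ± 0.11 SE, FDR 2.50e-06). PEA1 and PEA2 libraries overlapped (log2FC -0.10, interval -0.33 to 0.12), as did those of PEO1 and PEO4 (log2FC 0.08, interval -0.14 to 0.30). In the PEA pair it passed the threshold under quantile normalization, where the log2FC was -0.31 (FDR 0.0165, in a range over all alternatives from 0.0165 to 0.987). AIRN, an antisense noncoding RNA, lies within its span.

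IRS1, a docking protein that couples the IGF1 and insulin receptors to PI3K (chromosome 2, 227596028 to 227664536, minus strand), was the only one of the 10 genes to pass the FDR threshold in the same direction in all 3 pairs. In A2780 it had 522, 569 and 303 reads and in CP70 26, 23 and 18. That is a fall from 7.16 ± 0.06 to 2.29 ± 0.18 log2 CPM, 29.1-fold (log2FC -4.87 ± 0.14 SE, FDR 2.62e-16). It fell less from PEA1 to PEA2, from 6.80 ± 0.28 to 6.14 ± 0.09 (log2FC -0.66, FDR 0.000401), and from PEO1 to PEO4, from 7.37 ± 0.17 to 6.41 ± 0.17 (log2FC -0.96, FDR 1.28e-05). The libraries did not overlap in any pair. The A2780 pair differed from the PEA pair by 4.21 and from the PEO pair by 3.91, while the difference between the PEA and PEO pairs, -0.30, missed the threshold (FDR 0.193). CP70 stood apart with the lowest level, a log2 difference of 3.85 below the next line, PEA2.

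IRS2, the related docking protein (chromosome 13, 110405042 to 110438930, minus strand), was near the floor in the A2780 pair and well expressed in the other lines. The PEA and PEO lines held 146 to 946 reads a library, and their means, from 6.81 ± 0.18 to 7.25 ± 0.12 log2 CPM, were not separated from neighbour to neighbour. In A2780 it had 1, 4 and 6 reads and in CP70 1, 0 and 0, a ratio of 16.0 with an interval from 2.33 to 690 (log2FC -2.84, FDR 1.66e-05). In the PEA pair the log2FC was 0.45 (interval -0.44 to 1.34, FDR 0.376), although the libraries did not overlap and the FDR was 0.0124 with that pair fitted alone (0.00844 to 0.517 over all alternatives). Between PEO1 and PEO4 it was -0.05 (interval -0.94 to 0.84). Per transcript length, IRS1 gave 98.9% of the sum of IRS1 and IRS2 in A2780 and 98.7% in CP70, where the sum itself went from 14.8 to 0.499 RPKM. IRS1 gave 45.5% in PEA1 and 27.8% in PEA2, and 51.6% in PEO1 and 36.3% in PEO4. A noncoding gene on the other strand overlaps the start of IRS2.

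The pairs were compared with each other in the same fit. The change in the PEA pair differed from that in the A2780 pair in 9 of the 10 genes, IGF1R being the exception, where 57.5% of all genes differed. The PEO and A2780 pairs differed in 9 genes, all but IGFBP7, against 47.5% of all genes. The PEO and PEA pairs differed in 4 genes, IGFBP3, IGFBP6, IGFBP7 and IGF1R, against 58.7% of all genes. In the order of the 6 lines for each gene, 31 of 50 neighbouring lines were separated. Over all genes and all 15 line pairs, distant ones included, 65.8% of comparisons passed the threshold, a share that cannot be set against a count of neighbours only. For IGFBP3 and IGF1R all 5 neighbours were separated, and for IGFBP2, IGFBP7 and IRS2 only 2 of 5. In IGFBP5, PEA2 and CP70 were called separated although both were at the floor (1 read over 3 libraries against 0), where the 0.5 reads added and the depth set the value.

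The rest of the pathway was read from gene lists by role. The insulin receptor INSR, which can pair with IGF1R, was at 5.66 ± 0.10 log2 CPM in A2780 and 5.81 ± 0.06 in CP70 (log2FC 0.15, FDR 0.469). It rose from 4.32 ± 0.35 in PEA1 to 6.29 ± 0.25 in PEA2 (log2FC 1.96, FDR 2.11e-09), in the pair where IGF1R fell. Between PEO1 and PEO4, where IGF1R rose, it had a log2FC of -0.39 (FDR 0.0558). Of 13 genes listed as IGF ligands, insulin receptor and other IGFBP-fold genes, 4 had expression values, INSR, HTRA1, KAZALD1 and CRIM1. IGF1, IGF2 and IGFBP1 were not among the 4, so their expression is not described here. Among other genes with an IGFBP-type fold, HTRA1, a secreted protease, rose in the A2780 pair from 0 reads to between 7 and 11 (at least 5.94-fold). HTRA1 fell in the PEA pair, from 10 to 32 reads to 4 to 5 (log2FC -2.84, FDR 0.000578). In the PEO pair HTRA1 missed the threshold (FDR 0.0860). KAZALD1 rose in CP70 (log2FC 1.15, FDR 0.0279), in PEA2 (a ratio of 15.9, interval 6.03 to 59.4) and in PEO4 (log2FC 2.34).

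Proteases that release IGFs and the inhibitors of those proteases, 6 genes in the table, rose in 4 cases and fell in none in both the A2780 and the PEA pair, and rose in 2 and fell in 3 in the PEO pair. The shares of all genes that rose and fell were 22.2% and 17.7% in the A2780 pair, 32.5% and 29.4% in the PEA pair, and 19.6% and 21.9% in the PEO pair. With so few genes, and with proteases pooled with their inhibitors, these counts are given as a description. PAPPA, the protease that cuts IGFBP4, rose in the A2780 pair (log2FC 2.09, FDR 0.00620). IGFBP4 fell in that pair, at no more than 10 reads a library (log2FC -2.95, FDR 1.06e-06). PAPPA also rose from 1 to 6 reads a library in PEA1 to 40 to 103 in PEA2 (log2FC 3.91, FDR 7.01e-06). IGFBP4 rose in the same pair. Between PEO1 and PEO4 PAPPA fell from 27 to 60 reads to at most 2, a ratio of 39.8 (interval 10.8 to 332, log2FC -5.00, FDR 7.41e-07), while IGFBP4 missed the threshold. STC1, an inhibitor of PAPPA, was at 0 reads in A2780 and at 3 to 10 in CP70, at least 5.03-fold higher. STC2, of the same list, rose in the PEA pair from 125 to 183 reads to 798 to 1544 (log2FC 2.09, FDR 1.47e-11). STC2 missed the threshold in the other pairs.

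Of the 10 adaptors and substrates beside IRS1 and IRS2, 2 fell and none rose in the A2780 pair, 3 rose and 3 fell in the PEA pair, and 4 rose and 1 fell in the PEO pair. The counts in the PEA pair are near the 32.5% and 29.4% of all genes, and those of the other pairs stand beside 22.2% and 17.7% (A2780) and 19.6% and 21.9% (PEO). The largest value in each pair rests on few reads, but genes with more reads changed as well. The adaptor GRB14 fell in the A2780 pair from at most 2 reads a library to 0, for which no fold is given, and rose in the PEO pair from 1 to 3 reads to 2 to 18 (a ratio of 9.27, interval 3.58 to 30.6). SH2B2, another adaptor, fell in the PEA pair from 6 to 12 reads to 0 to 9 (log2FC -2.45). With more reads, GRB10 fell in the A2780 pair (log2FC -1.58, FDR 2.06e-07) and SH2B1 rose in the PEA pair (log2FC 1.59, FDR 9.93e-08). SHC1 rose in the PEO pair (log2FC 1.55, FDR 3.18e-10). In the PEA pair SHC1 fell (log2FC -0.74) and GRB10 rose (log2FC 0.60).

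The core of the PI3K, AKT and mTOR pathway, 20 genes, had by the FDR alone 6 genes higher and 6 lower in the A2780 pair, 8 and 4 in the PEA pair and 6 and 7 in the PEO pair, and the median log2FC was -0.13, 0.10 and -0.02. The corresponding shares of all genes were 22.2% and 17.7%, 32.5% and 29.4%, and 19.6% and 21.9%. PIK3R1, the regulatory subunit of PI3K that binds IRS proteins, rose from 6.69 ± 0.12 log2 CPM in PEO1 to 9.13 ± 0.03 in PEO4 (log2FC 2.44, FDR 1.09e-10). It rose less in the A2780 pair (log2FC 0.56) and in the PEA pair (log2FC 0.68). The catalytic subunit PIK3CB rose in the PEA pair, from 6.05 ± 0.14 to 7.44 ± 0.22 log2 CPM (log2FC 1.40, FDR 5.90e-09). It also rose in the A2780 pair (log2FC 0.57) and fell in the PEO pair (log2FC -0.54).

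FOXO factors, which AKT holds out of the nucleus, and some of their known target genes formed a list of 10. In the A2780 pair 5 rose and 4 fell, in the PEA pair 7 rose and 2 fell, and in the PEO pair 2 rose and 2 fell. The shares of all genes were 22.2% and 17.7%, 32.5% and 29.4%, and 19.6% and 21.9% in the same order, so the counts in the PEO pair are near the background. FOXO1 rose in the PEA pair from 2 to 3 reads to 170 to 282, a ratio of 55.4 (interval 26.8 to 138, log2FC 5.54, FDR 2.82e-12). It also rose in the A2780 pair (log2FC 0.97) and fell in the PEO pair (log2FC -1.89). SESN3, a stress-response target, rose in the A2780 pair (a ratio of 16.6, interval 6.29 to 62.3). TXNIP, a regulator of glucose uptake, rose in all 3 pairs, with a log2FC of 1.49 (A2780), 3.51 (PEA) and 2.31 (PEO). Counts over the list were 1 and 1, 6 and 4, and 2 and 1, higher and lower, for the 10 IGF2 mRNA-binding proteins and partners of the mannose 6-phosphate receptors in the same 3 pairs, beside the same shares of all genes. The transferase subunit GNPTG fell in the A2780 pair (log2FC -1.34), NAGPA, which uncovers the mannose 6-phosphate tag that IGF2R recognises, fell in the PEA pair (log2FC -3.46), and IGF2BP3 rose in the PEO pair (log2FC 1.09).

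**Figure D4:**
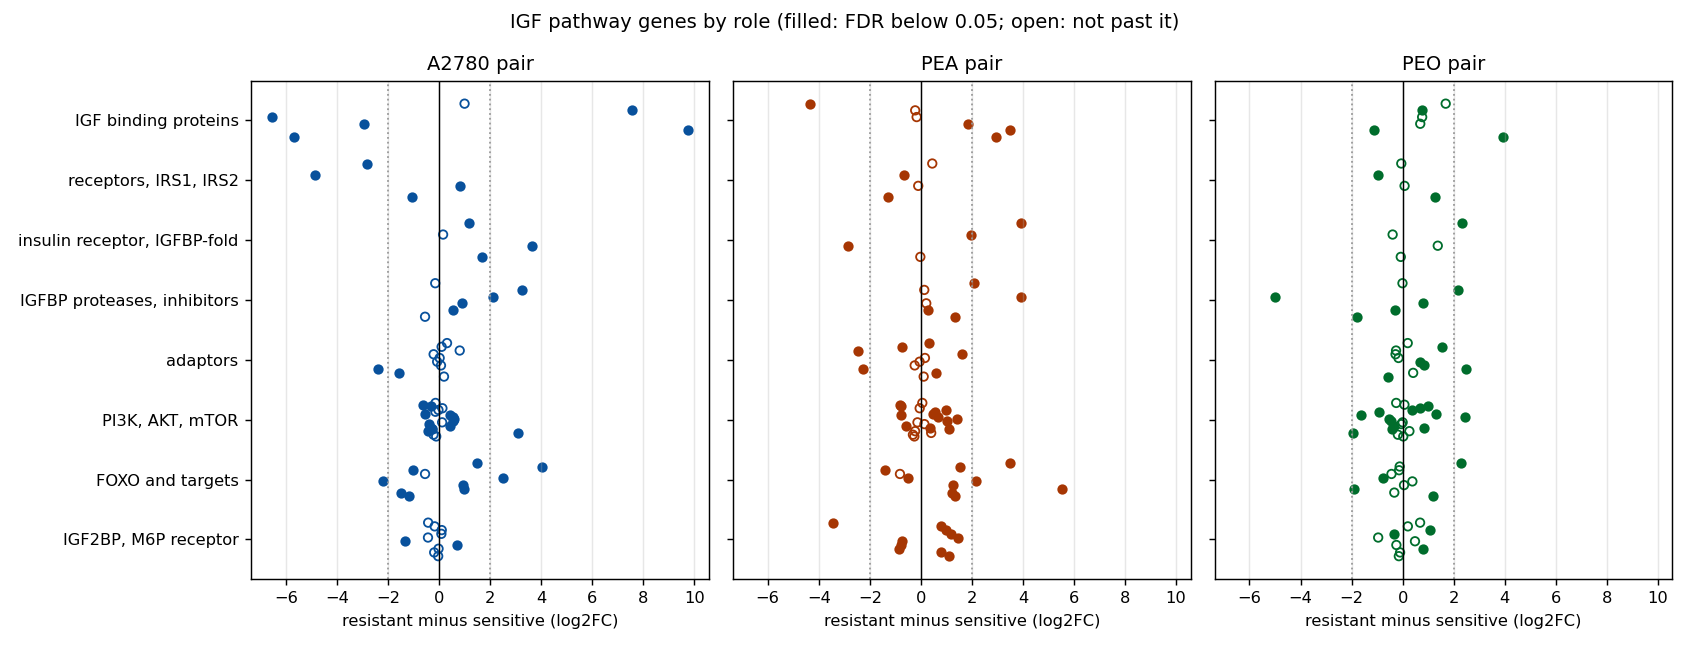
Resistant minus sensitive log2FC (x axis) of each gene in 8 lists of the IGF pathway by role (y axis), in the A2780, PEA and PEO pairs, with filled circles for an FDR below 0.05 and dotted lines at 2 and -2. The binding proteins spread from -6.55 to 9.76 in the A2780 pair and from -4.33 to 3.51 in the PEA pair.

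For each of the 10 genes, the gene whose expression was most like it over the 18 libraries was found among genes with a mean log2 CPM above 0. The Pearson correlations lay between 0.905 and 0.989. They come from 6 lines with 3 libraries each, so they describe the pattern over 6 lines and carry no p-value. IGFBP3 was most like FERMT1, IGFBP4 most like PLOD2 and IGFBP6 most like NCOA7. IGFBP5 was most like KIDINS220, and IGFBP2 most like RPL10A, with the lowest correlation of the 10. The receptors IGF1R and IGF2R were most like CD70 and STC1, and the substrates IRS1 and IRS2 most like FAM127C and FAM111B.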

How the data were processed

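RNA-seq of 18 libraries, 3 of each of 6 lines, was used. The submitters' processing notes name Bowtie2, featureCounts, limma and the build hg19. The authors deposited 1 log2 CPM value per gene and library, which includes 0.5 added reads, and how the 12853 genes were filtered is not given in the sources used here. Recovered reads were whole within 0.01 and gave the depth and the floor of 3 reads. Groups came from the sample labels.

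The log2 values were fitted with limma 3.58.1 in R 4.3.3, with a mean for each line, moderated statistics and a variance trend. The FDR is Benjamini-Hochberg over all 12853 genes. The differential expression thresholds are those of the study. RPKM used canonical transcript lengths of a GRCh37 annotation, which matched 12642 genes. In simulated data for the A2780 pair, 200 of 200 genes changed by a log2FC of 3 were recovered, with 1 false call.

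Genes named beyond the 10 were, for each list, the largest log2FC past the FDR in each pair, with INSR, and the most correlated gene. Not every gene so chosen is reported here, nor is every change of a named gene in the other pairs. STC2, CRIM1, some adaptors and some cell type markers were named outside the rule of the largest log2FC. Other genes of the same lists that passed the FDR are not named. The 10 genes and the lists were chosen with earlier results of these data known. Alternatives were each pair alone, a mean log2 filter, quantile normalization, a replicate block, no trend, an absolute log2FC above 1, voom on recovered reads, 2 reads added, and leaving out each library.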

Additional observations from a re-analysis of the deposited data

Results flagged for a closer look

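For 22 results the change in 1 pair differed from the change in another at an FDR below 0.05 in limma's test of that difference. Values are differences of log2FC. Comparisons with the same pair share its libraries.

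Against the A2780 pair, the PEA pair differed by 8.65 and the PEO pair by 9.64 in IGFBP2, by -6.25 and -10.87 in IGFBP3, by 4.81 and 3.65 in IGFBP4, and by -7.79 and -6.81 in IGFBP6. In each of these at least 1 line held at most 3 reads a library, so the sizes depend on the 0.5 reads added. The same holds for IGFBP5, 6.38 and 7.32, where CP70 was at 0 reads and both PEA lines were at the floor, and for IRS2, 3.29 and 2.79, where CP70 was at the floor.

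The other differences from the A2780 pair were 4.21 and 3.91 in IRS1 and -0.93 and -0.75 in IGF2R for the PEA and PEO pairs, 2.36 in IGF1R for the PEO pair, and -5.33 in IGFBP7 for the PEA pair. For IGFBP7 both lines of the A2780 pair were at the floor.

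Between the PEO and PEA pairs, IGFBP3 differed by -4.62, IGFBP6 by 0.99, IGFBP7 by 6.02 and IGF1R by 2.59. PEO1 was at the floor for IGFBP7.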

How the results depend on the processing

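By the FDR, no single-gene call was lost under any alternative. The sign turned in 6 values, none of which passed the threshold in either fit (IGFBP6 and IGFBP5 in the PEA pair, IRS2 in the PEO pair, and 3 values of IGFBP7 between the PEO and A2780 pairs). Of 1470 single-gene values, 1441 kept their side of the threshold and 29 newly passed it. In the PEO pair IGFBP4, IGFBP5 and IGFBP7 passed under several fits. With an absolute log2FC above 1, 5 genes instead of 3 were called in the PEA pair and 3 instead of 1 in the PEO pair. With 2 reads added, the differentially expressed genes went from 7 to 5 in the A2780 pair (IGFBP4 and IRS2 lost) and from 3 to 2 in the PEA pair (IGFBP2 lost). With voom or with 2 reads added, 8 instead of 5 genes passed the FDR in the PEO pair, and with 2 reads added 7 instead of 4 differed between the PEO and PEA pairs. Leaving out single libraries gave 7 in the A2780 pair, 3 to 4 in the PEA pair (4 without PEA1 replicate 1) and 1 to 2 differentially expressed genes in the PEO pair, 2 without PEO1 replicate 1, PEO1 replicate 2 or PEO4 replicate 3, when IGFBP7 passed at a log2FC of 2.36, 2.06 or 2.07.

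With the replicate block the counts of differentially expressed genes were 7, 3 and 1, as without it, and no call changed. Same-numbered libraries deviated from their line means with correlations from -0.15 to 0.17, so the numbers were not taken to pair libraries. Depth limits the genes at or near 3 reads, whose fold is bounded or uncertain.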
